A study of Mus musculus with 4 samples.

Results

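The miR-29 family of the mouse consists of the guide strands mmu-miR-29a-3p, mmu-miR-29b-3p and mmu-miR-29c-3p (the prefix, for mouse, is left out below), and all 3 were found by name among the 1809 miRNAs listed for all 4 libraries of plasma vesicle RNA. The libraries came from C57BL/6 mice that had received Lewis lung carcinoma (LLC) cells, a transplantable lung tumour line, into a vein, and their plasma was taken on day 21. The groups were mice lacking gp49B (genotype gp49B-/-, here KO), an inhibitory receptor of myeloid cells, and wild-type mice (WT), and both carried the tumour cells, so no tumour-free group was compared. Each genotype had 2 libraries, numbered pool 1 and pool 2, and a library was made from 4 pooled plasma samples in KO and from 3 in WT. Vesicles were precipitated from plasma with a polymer reagent, so RNA outside vesicles may have been carried along, and no vesicle marker was measured.

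A miRNA guides a silencing complex to mRNAs that pair with its seed, bases 2 to 8, and lowers their stability or translation. The miR-29 family is best known for repressing mRNAs of the extracellular matrix, among them fibrillar collagens, elastin and fibrillin, and in fibroblasts and hepatic stellate cells it is lowered by TGF-beta, a main driver of fibrosis. Other known targets are the DNA methyltransferases Dnmt3a and Dnmt3b and the survival factor Mcl1. No mRNA or protein was measured here, so none of these targets was examined.

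The mature sequences (RefSeq, GRCm38.p6) are shown because the members share their seed, in capitals, and differ only outside it.
miR-29a-3p: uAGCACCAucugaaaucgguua
miR-29b-3p: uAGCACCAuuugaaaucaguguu
miR-29c-3p: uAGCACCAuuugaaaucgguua
Among 1679 mouse mature miRNA names in the same RefSeq table, these 3 were the only ones with AGCACCA at bases 2 to 8 (0.179%). Counted from 1 at the 5′ end, miR-29a-3p and miR-29c-3p differ at 1 of 22 positions, C10U, with the base of miR-29a-3p first. Against miR-29c-3p, miR-29b-3p differs at 3 of the first 22 positions, G18A, U21G and A22U, with the base of miR-29c-3p first, and it is 23 bases long. Its end holds the letters AGUGUU, which in human cells were tied to import of miR-29b into the nucleus. They occur anywhere in 12 of the 1679 names (0.715%), read on the miRNA's own strand, and at the very end only in miR-29b-3p and miR-92b-5p. The sources used here do not say how reads with a mismatch were assigned, so a miR-29a-3p read with a misread base 10 could have been counted as miR-29c-3p.

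The members come from 2 loci, each a pair of hairpins, and the deposited positions matched those of RefSeq on GRCm38. On chromosome 6, minus strand, Mir29a gives miR-29a-3p (chr6:31062673-31062694) and Mir29b-1 gives miR-29b-3p (chr6:31063025-31063047), with 275 bases between the hairpins. In GENCODE M21, Mir29b-1 shares 2 bases with an exon of the long noncoding RNA Gm27019, and Mir29a overlaps no other gene. On chromosome 1, plus strand, Mir29b-2 gives miR-29b-3p again (chr1:195037091-195037113) and Mir29c gives miR-29c-3p (chr1:195037600-195037621), with 426 bases between them. Both lie in an exon of the noncoding RNA A330023F24Rik, and opposite a UTR of Cd46, which is on the other strand. A miR-29b-3p count therefore sums 2 loci, and the mature sequence does not tell them apart.

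Each cDNA carried a molecular tag (unique molecular identifier, UMI) added before amplification, and a level here is the number of different tags. Total miRNA UMIs were 1709669 and 3630249 in KO pools 1 and 2, against 1577749 and 3170219 in WT pools 1 and 2. Reads per UMI were 5.70 and 2.11 in KO pools 1 and 2, against 5.29 and 1.69 in WT pools 1 and 2, so libraries of the same number resembled each other in depth more than libraries of the same genotype did. Feature lists also went by number: both pool 1 libraries listed 1863 miRNAs and 67 piRNAs with a smallest count above 0 of 10, and both pool 2 libraries listed 1816 and 72, with a smallest count of 2 in KO and 1 in WT. The labels do not say that a pool number marks a shared batch. Levels are therefore given per library and ratios within each number, on 2 scales: TMM, which takes most miRNAs as unchanged, and total miRNA UMIs. The median KO over WT ratio of the 1797 miRNAs tested was 0.994 in pool 1 and 0.989 in pool 2 with TMM, and 0.88 and 1.18 with total UMIs.

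As a family, the 3 members made up a share of miRNA UMIs that differed more between pool numbers than between KO and WT. They had 18040 and 21761 UMIs in KO pools 1 and 2, against 15893 and 17080 in WT pools 1 and 2. Their share was 1.06% in KO pool 1 (exact 95% binomial interval 1.04 to 1.07%) and 0.599% in KO pool 2 (0.592 to 0.607%). In WT it was 1.01% in pool 1 (0.992 to 1.02%) and 0.539% in pool 2 (0.531 to 0.547%). Such intervals cover counting error only, here and below. With TMM the family stood at 7020 and 8770 CPM (relative UMI counts, on a scale where every library has the same effective total) in KO, against 5940 and 9390 CPM in WT. The KO over WT ratio for pool 2 turned with the scale: it was 1.18 for pool 1 and 0.934 for pool 2 with TMM, and 1.05 and 1.11 with total UMIs. So did the order of the pool numbers, since pool 2 was the lower one as a share and the higher one with TMM. The genotypes overlapped on both scales, and fewer vesicles from a cell type and fewer copies per vesicle cannot be told apart in such libraries.

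The most abundant member, miR-29a-3p, had 14661 and 18576 UMIs in KO pools 1 and 2, against 13101 and 14587 in WT pools 1 and 2. It ranked 21st and 22nd of the 1809 miRNAs in the KO libraries and 16th and 23rd in the WT libraries. With TMM scaling its level was 5710 and 7480 CPM in KO, against 4900 and 8020 CPM in WT. Both KO values thus lay between the WT values with TMM. Scaled on total miRNA UMIs, the levels were 8580 and 5120 CPM in KO, against 8300 and 4600 CPM in WT. There KO pool 1 lay above both WT values, and the genotypes overlapped.

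The level of miR-29b-3p was higher in KO than in WT within each pool number. It had 1883 and 1402 UMIs in KO pools 1 and 2, against 1363 and 747 in WT pools 1 and 2, ranks 66 and 80 against 66 and 96. After TMM scaling this was 733 and 565 CPM in KO, against 509 and 411 CPM in WT. Here both KO libraries lay above both WT libraries, as they did for 9.52% of the 1797 miRNAs tested, and the other members showed no such separation. On the scale of total miRNA UMIs the levels were 1100 and 386 CPM in KO, against 864 and 236 CPM in WT. On that scale both pool 2 libraries were lower than both pool 1 libraries and the genotypes overlapped; 3.28% of miRNAs had both KO above both WT libraries there.

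For miR-29c-3p there were 1496 and 1783 UMIs in KO pools 1 and 2, against 1429 and 1746 in WT pools 1 and 2, ranks 72 and 69 against 64 and 64. With TMM scaling it stood at 582 and 718 CPM in KO, against 534 and 960 CPM in WT. As with miR-29a-3p, the KO values lay inside the range of the WT values with TMM. Scaled on total miRNA UMIs, the levels were 875 and 491 CPM in KO, against 906 and 551 CPM in WT. There KO pool 2 lay below both WT values, and the genotypes overlapped.

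**Figure D1:**
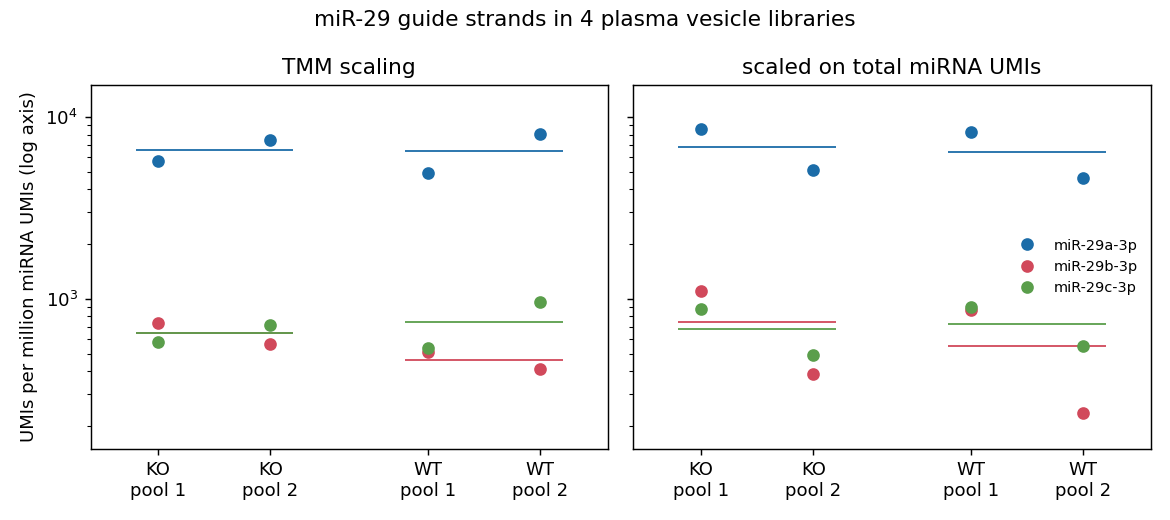
Level of each member in each library, in CPM on a log axis, with TMM scaling (left) and scaled on total miRNA UMIs (right). Points are libraries and lines are means of 2. With TMM, miR-29b-3p lies at 733 and 565 in KO and at 509 and 411 in WT, while the KO points of the other members lie between their WT points.

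In order of level, miR-29a-3p came first in every library, with 6600 ± 1260 CPM in KO and 6460 ± 2210 CPM in WT (TMM, SD, n = 2 each). The group means of the other members were not separated from each other beyond the SD between libraries. Within libraries their order changed: miR-29b-3p had 1883 UMIs against 1496 of miR-29c-3p in KO pool 1, and 1402 against 1783 in KO pool 2. In WT miR-29b-3p had 1363 UMIs against 1429 of miR-29c-3p in pool 1, and 747 against 1746 in pool 2. In KO miR-29b-3p averaged 649 ± 119 and miR-29c-3p 650 ± 96.1 CPM. In WT they averaged 460 ± 69.8 and 747 ± 301 CPM, and both WT values of miR-29c-3p lay above both of miR-29b-3p, though the means differed by less than the SD of miR-29c-3p. UMIs of different miRNAs are compared as counted, without correction for length or for how readily each end is ligated.

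The design asks how vesicle miRNAs of tumour-bearing mice depend on gp49B. Over all 1797 miRNAs tested, edgeR's quasi-likelihood test with Benjamini-Hochberg adjustment called 0 (0.0%), and 32 (1.78%) had an unadjusted p under 0.05. It called 0 of the 3 members, none of which was under 0.05 unadjusted. DESeq2 and limma-voom also called 0, and 28 and 27 miRNAs were under 0.05 unadjusted in those tests. For miR-29b-3p the log2 fold change, KO over WT, was 0.50 (SE 0.59, 95% interval -0.80 to 1.79), with an edgeR adjusted p of 0.99995. It was 0.03 (SE 0.78, interval -1.70 to 1.76) for miR-29a-3p and -0.20 (SE 0.62, interval -1.57 to 1.17) for miR-29c-3p, at the same adjusted p. The intervals of miR-29a-3p and miR-29c-3p hold 2-fold differences in either direction and that of miR-29b-3p holds a 2-fold rise, so the test shows neither a difference nor its absence. Nothing in the labels says that the pools came from separate experiments, so these p-values measure only the spread between the libraries.

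Within pool numbers the members went different ways. With TMM, the KO over WT ratio of miR-29b-3p was 1.44 for the pool 1 libraries (exact 95% interval 1.34 to 1.54) and 1.38 for the pool 2 libraries (1.26 to 1.51). With total UMIs it was 1.27 (1.19 to 1.37) and 1.64 (1.5 to 1.79). It was thus above 1 in both numbers on both scales. Taking each scale alone, KO exceeded WT in both numbers for 24.5% of all miRNAs tested with TMM and for 24.4% with total UMIs. Of the 352 miRNAs whose mean count reached 100 UMIs, 108 did so with TMM and 119 with total UMIs. The share that did so on both scales together was not counted.

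For miR-29a-3p the TMM ratio was 1.17 for pool 1 (1.14 to 1.19) and 0.933 for pool 2 (0.913 to 0.954). With total UMIs it was 1.03 (1.01 to 1.06) and 1.11 (1.09 to 1.14), so the direction in pool 2 turned with the scale. For miR-29c-3p it was 1.09 for pool 1 (1.01 to 1.17) and 0.748 for pool 2 (0.7 to 0.8) with TMM. It was 0.966 (0.898 to 1.04) and 0.892 (0.834 to 0.953) with total UMIs, so in pool 2 it was below 1 on both scales and in pool 1 its direction turned with the scale.

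**Figure D2:**
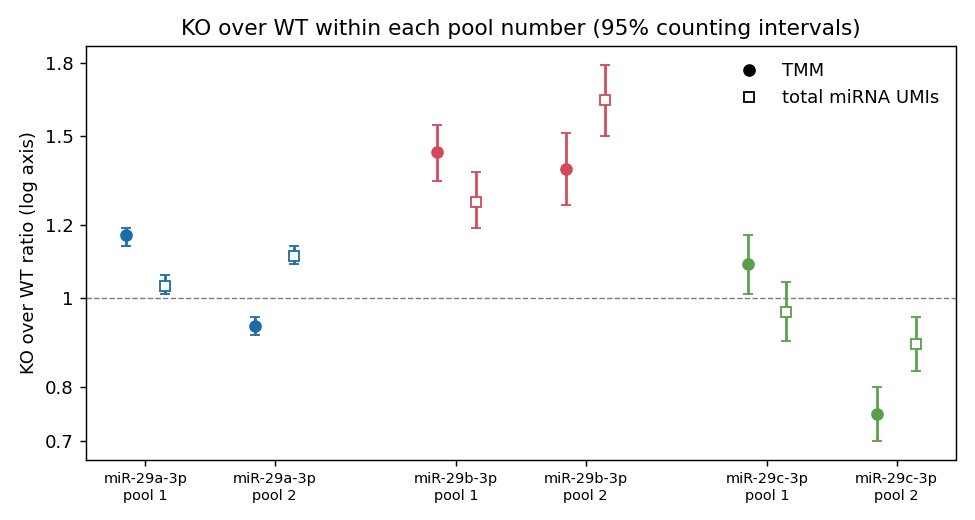
KO over WT ratio of each member within each pool number, on a log axis, with TMM (filled circles) and scaled on total miRNA UMIs (open squares); bars are exact 95% intervals for counting error. The 4 points of miR-29b-3p lie between 1.27 and 1.64, while those of the other members fall on both sides of 1.

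The balance between members does not depend on how libraries are scaled. Of the family's UMIs, miR-29b-3p made up 10.4% in KO pool 1 (10.0 to 10.9%) and 6.44% in KO pool 2 (6.12 to 6.78%), against 8.58% in WT pool 1 (8.15 to 9.02%) and 4.37% in WT pool 2 (4.07 to 4.69%). Its share was thus higher in KO within each number, and lower in pool 2 than in pool 1 in each genotype. The share of miR-29c-3p was 8.29% and 8.19% in KO pools 1 and 2, against 8.99% and 10.2% in WT pools 1 and 2, so both KO libraries lay below both WT libraries. For miR-29a-3p the shares were 81.3% and 85.4% in KO, against 82.4% and 85.4% in WT, and the genotypes overlapped.

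Set against miR-29a-3p, there were 12.8 and 7.55 UMIs of miR-29b-3p per 100 in KO pools 1 and 2, against 10.4 and 5.12 in WT pools 1 and 2. This balance was 1.23 times as high in KO as in WT for pool 1 (exact 95% interval 1.15 to 1.33) and 1.47 times for pool 2 (1.34 to 1.62). Per UMI of miR-29a-3p, 17.6% of the 1796 other miRNAs tested were higher in KO in both numbers, and 5.62% had both KO above both WT libraries, which miR-29b-3p did not. The same balance was 0.588-fold in pool 2 over pool 1 within KO and 0.492-fold within WT, further from 1 than either ratio between genotypes.

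Of miR-29c-3p there were 10.2 and 9.6 UMIs per 100 of miR-29a-3p in KO, against 10.9 and 12 in WT. KO over WT, this came to 0.935 for pool 1 (0.866 to 1.01), where the counting interval holds 1, and to 0.802 for pool 2 (0.748 to 0.86). Both KO values lay below both WT values, as they did for 10.4% of miRNAs on this scale, and 30.9% were lower in KO in both numbers. The balance of the minor members differed more. The ratio of miR-29b-3p to miR-29c-3p was 1.32 times as high in KO as in WT for pool 1 (1.19 to 1.46) and 1.84 times for pool 2 (1.64 to 2.06). Per 100 UMIs of miR-29c-3p there were 126 and 78.6 of miR-29b-3p in KO, against 95.4 and 42.8 in WT, so the genotypes overlapped. This balance was 0.625-fold in pool 2 over pool 1 within KO and 0.449-fold within WT. It was not set beside other miRNAs. With 2 libraries against 2, an exact two-sided permutation test cannot give a p below 0.333, so no test of these balances between genotypes was made.

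**Figure D3:**
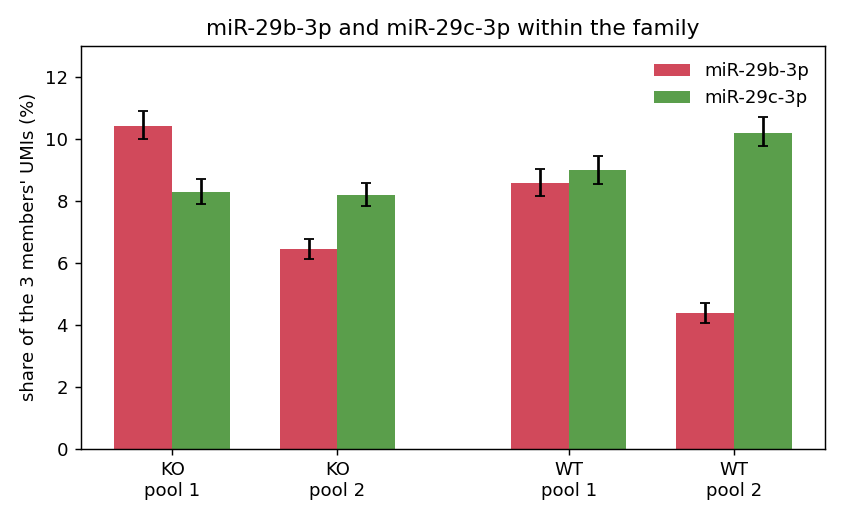
Share of miR-29b-3p and miR-29c-3p in the UMIs of the 3 members, in percent, in each library; bars start at 0 and whiskers are exact 95% binomial intervals. The share of miR-29b-3p is 10.4% and 6.44% in KO and 8.58% and 4.37% in WT, and that of miR-29c-3p is 8.29% and 8.19% in KO and 8.99% and 10.2% in WT.

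Amplification was alike across the family within a library. Reads per UMI were 5.46, 5.53 and 5.34 for miR-29a-3p, miR-29b-3p and miR-29c-3p in KO pool 1 and 2.09, 2.12 and 2.04 in KO pool 2. They were 5.11, 5.37 and 5.10 in WT pool 1 and 1.66, 1.67 and 1.66 in WT pool 2. Counting reads in place of UMIs left all 12 shares within their intervals.

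The passenger arms, the strands of each hairpin that are mostly discarded, had 11 to 57 UMIs, where the median miRNA had 43 and 42 in KO pools 1 and 2, against 47 and 31 in WT pools 1 and 2. Their ranks among the 1809 miRNAs ran from 664 (miR-29c-5p in KO pool 1) to 1616 (miR-29b-2-5p in WT pool 2). For miR-29c-5p there were 57 and 52 UMIs in KO, against 30 and 35 in WT, and for miR-29a-5p 52 and 28 in KO, against 46 and 28 in WT. The arms that tell the miR-29b loci apart also had few counts: miR-29b-1-5p of chromosome 6 had 32 and 17 UMIs in KO, against 35 and 17 in WT, and miR-29b-2-5p of chromosome 1 had 38 and 19 in KO, against 40 and 11 in WT. The chromosome 6 arm was 45.7% (33.7 to 58.1%) and 47.2% (30.4 to 64.5%) of their sum in KO, against 46.7% (35.1 to 58.6%) and 60.7% (40.6 to 78.5%) in WT. These intervals all overlapped, and a shift between the loci was not tested.

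Of the 4 passenger arms, edgeR called 0, and none was under 0.05 unadjusted. The highest estimate of the 4 was that of miR-29c-5p, a log2 fold change of 0.52 (SE 0.43, 95% interval -0.42 to 1.46, edgeR adjusted p 0.99995). With TMM its KO over WT ratio was 1.98 for pool 1 (1.25 to 3.19) and 1.09 for pool 2 (0.696 to 1.72), where the counting interval holds 1. Both KO libraries lay above both WT libraries with TMM, as they did for 9.52% of all miRNAs tested, but not with total UMIs. There were 26.2 and 34.3 UMIs of miR-29c-3p for each UMI of miR-29c-5p in KO, against 47.6 and 49.9 in WT. For miR-29a the guide outnumbered the passenger 282 and 663 to 1 in KO, against 285 and 521 to 1 in WT. For miR-29b, with both passenger arms summed, the figures were 26.9 and 38.9 in KO, against 18.2 and 26.7 in WT.

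Over the 4 libraries, miR-29a-3p and miR-29c-3p had similar profiles and miR-29b-3p had another. Likeness was measured as the distance between centred log2 CPM (TMM, prior count 2) over the 4 libraries, among 349 other miRNAs whose mean count reached 100 UMIs. The nearest to miR-29b-3p was miR-141-3p, at 0.05, with 801 and 602 UMIs in KO, against 606 and 327 in WT. Next came miR-3154, let-7b-3p, let-7j and miR-24-3p, at 0.12 to 0.22. Its distance to miR-29a-3p was 1.00 and to miR-29c-3p 1.14, against a median of 1.03 over the 349 miRNAs. By contrast miR-29a-3p and miR-29c-3p were 0.24 apart, where the medians were 0.74 and 0.81. Nearest to miR-29a-3p were let-7g-5p, let-7d-3p, miR-221-3p, miR-7215-5p and miR-320-3p (0.12 to 0.15), and nearest to miR-29c-3p were miR-664-5p, miR-423-3p, let-7d-3p, miR-704 and miR-671-3p (0.08 to 0.16). Each distance rests on 4 libraries that share a table and a scaling, and it is a description only.

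**Figure D4:**
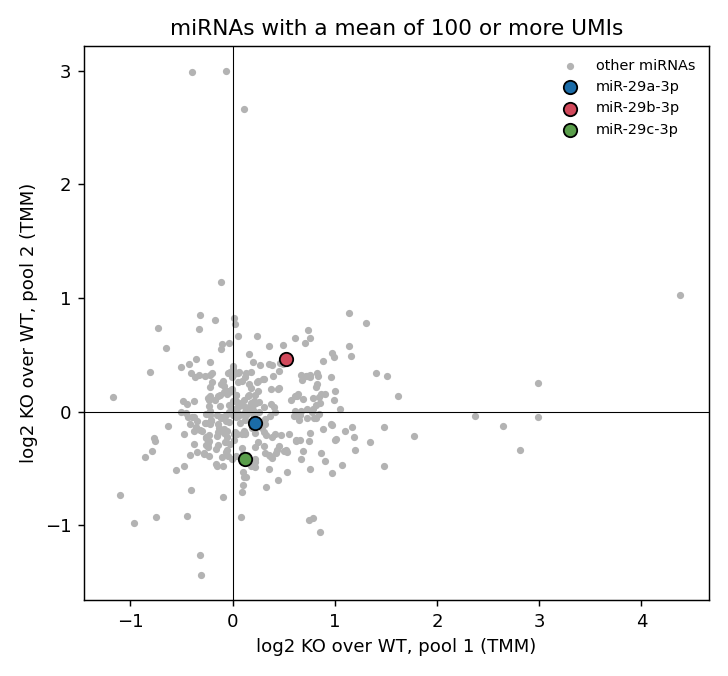
log2 KO over WT ratio (TMM, prior count 2) in pool 1 (x axis) and pool 2 (y axis) for 352 miRNAs whose mean count reached 100 UMIs; each point is a miRNA. The point of miR-29b-3p lies where 108 miRNAs were higher in KO in both numbers, and those of miR-29a-3p and miR-29c-3p among the 111 higher in pool 1 and lower in pool 2.

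Other miRNAs tied to fibrosis were compared as a list of 13, from general knowledge: 5 described as profibrotic and 8 as antifibrotic. edgeR called 0 of the 13, and none was under 0.05 unadjusted. Estimates were above 0 for 11 and below 0 for 2, with a median log2 fold change of 0.24. Over the 352 miRNAs whose mean count reached 100 UMIs, 205 estimates were above 0, with a median of 0.05, and over all 1797 there were 851, with a median of -0.03. On the TMM scale, KO exceeded WT for 10 of 13 in pool 1, for 7 of 13 in pool 2 and for 5 in both. Of the 352 the same held for 220, 162 and 108. With total UMIs the counts were 9, 9 and 6 of the 13, beside 158, 263 and 119 of the 352.

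Among those described as profibrotic, miR-21a-5p, which is induced in activated fibroblasts, had 32204 and 40646 UMIs in KO, against 24527 and 25782 in WT. Its KO over WT ratios were 1.37 (1.35 to 1.39) and 1.16 (1.14 to 1.17) in pools 1 and 2 with TMM. For miR-199a-5p, which represses caveolin-1 in lung fibroblasts, there were 364 and 326 UMIs in KO, against 132 and 192 in WT. Both its KO libraries lay above both WT libraries on both scales (log2 fold change 0.82, SE 0.54, edgeR adjusted p 0.99995). Of all miRNAs tested, 9.52% were so separated with TMM and 3.28% with total UMIs. The ratios of miR-214-3p were 0.932 and 1.52, those of miR-34a-5p 1.19 and 1.13, and those of miR-192-5p, which is also rich in liver and gut, 0.552 and 0.759 with TMM. For miR-192-5p both KO libraries lay below both WT libraries with total UMIs but not with TMM, and 2.11% of all miRNAs were so separated with total UMIs.

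Among those described as antifibrotic, miR-133a-3p, a muscle miRNA, had the widest gap between numbers, with ratios of 7.02 (6.56 to 7.52) and 0.790 (0.750 to 0.833). Like miR-29a-3p and miR-29c-3p, miR-26a-5p (2.29 and 0.789), miR-30c-5p (1.35 and 0.777), miR-101a-3p (1.76 and 0.960) and miR-19b-3p (1.09 and 0.970) were above 1 in pool 1 and below 1 in pool 2 with TMM. With total UMIs miR-26a-5p (2.03 and 0.941) and miR-30c-5p (1.19 and 0.926) kept that direction, miR-101a-3p (1.56 and 1.14) was above 1 in both, and miR-19b-3p turned (0.964 and 1.16). With TMM the ratios of miR-200a-3p were 1.53 and 1.00, those of miR-200b-3p 1.66 and 1.02, and those of let-7d-5p 0.979 and 1.04.

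Markers of cells that could release these vesicles also differed between libraries. The 5 striated muscle miRNAs made up 3.73% and 0.691% of UMIs in KO pools 1 and 2, against 0.408% and 0.428% in WT pools 1 and 2. All 5 had estimates above 0, beside 851 of all 1797 miRNAs tested. Of the 5, edgeR called 0, and miR-133b-3p and miR-206-3p were under 0.05 unadjusted, beside 32 of the 1797. On the TMM scale KO exceeded WT for 5 of 5 in pool 1 and for 2 of 5 in pool 2, beside 886 and 864 of all 1797 miRNAs. With total UMIs it did so for 5 of 5 and for 4 of 5, beside 623 and 1240 of 1797, as miR-1a-3p (0.969 with TMM, 1.15 with total UMIs) and miR-133b-3p (0.914 and 1.09) turned in pool 2. The 4 fibroblast and smooth muscle miRNAs include miR-199a-5p and miR-214-3p of the fibrosis list. Together the 4 made up 0.888% and 0.334% in KO, against 0.580% and 0.523% in WT. Most of this was miR-143-3p, with 0.818% and 0.294% in KO, against 0.534% and 0.471% in WT. In pool 2 the KO over WT ratio with TMM was 0.524 for miR-143-3p and 0.479 for miR-145a-5p. It was 1.24 for miR-199a-5p and 1.52 for miR-214-3p. Shares were 4.64% and 1.14% in KO, against 2.21% and 1.16% in WT, for 4 myeloid and platelet miRNAs, and 0.922% and 0.339% in KO, against 0.587% and 0.339% in WT, for 2 endothelial miRNAs. The 5 red blood cell miRNAs made up 7.94% and 17.8% in KO, against 10.6% and 18.4% in WT. The 4 hepatocyte miRNAs made up 7.37% and 20.2% in KO, against 11.2% and 27.2% in WT. Most of the hepatocyte sum was miR-122-5p, with 7.05% and 19.7% in KO, against 10.6% and 26.6% in WT. None of these markers was at 0 in any library. The summed muscle share was higher in KO within both numbers. In pool 2 miR-206-3p alone made up 0.412% of UMIs in KO, against 0.17% in WT. The part of these lists in the miR-29 values was not tested.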

How the data were processed

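Small RNA of vesicles precipitated from plasma was made into QIAseq libraries with UMIs and sequenced on a NextSeq 500, per the labels' protocols. Per the submitters' processing notes, FastQC 0.11.9 was used and the build was GRCm38 (mm10); no source used here names the aligner or counter. The authors deposited whole-number UMI counts and read counts per miRNA, not normalized, and a log2 value per library, which equals log2 of the UMI count plus a constant (0.0296 in KO pool 1, -0.209 in KO pool 2, -0.0276 in WT pool 1, 0.215 in WT pool 2). In the deposited per-library tables of pool 2, column names carry the labelled genotype but the number 1; they were assigned by sample record, and their counts equal the pool 2 columns of the joint table in all 1888 features.

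The 1809 miRNAs listed for all libraries were used, and 61 others and the piRNAs were left out. Genotypes were compared with edgeR 4.0.16 in R 4.3.3 (default filter by expression, TMM, two-sided quasi-likelihood F-test, calls at p under 0.05 after Benjamini-Hochberg adjustment). The test was also run on simulated counts with a common dispersion and independent libraries. Same-numbered libraries resembled each other in the real data, so that run does not bear on the calls here. The SE is the log2 fold change over the root of F. The fit has 2 residual degrees of freedom. Intervals of the log2 fold changes used a median of 10.7 in total, the rest being prior degrees of freedom estimated over all miRNAs tested. TMM factors were 1.50 and 0.684 in KO pools 1 and 2, against 1.70 and 0.574 in WT pools 1 and 2. Ratios within a pool number have exact conditional 95% intervals. Alternatives used limma 3.58.1, DESeq2 1.42.0, other scalings, filters and units, a block by pool number and each library left out. Scaling on miR-29a-3p was chosen after the data were seen.

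The members and lists were chosen with earlier results of these data known. The text names the members, their passenger arms, 13 fibrosis-associated miRNAs, marker lists, the 5 nearest profiles of each member and any miRNA with the same seed.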

Additional observations from a re-analysis of the deposited data

How the results depend on the processing

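None of the 3 members passed the adjusted threshold under any of the 15 other settings, with a lowest adjusted p of 0.898. The log2 fold change of miR-29b-3p kept its direction in all 15 (0.31 to 0.68). That of miR-29a-3p was below 0 in 4: -0.03 when testing was limited to mean counts of at least 100 UMIs, with or without the block, -0.26 without WT pool 1 and -0.18 without KO pool 2, in a range of -0.26 to 0.43 over the libraries left out. For miR-29c-3p that range was -0.54 to 0.29, and its estimate turned to 0.29 without WT pool 2. The cause was not tested. A fit with a lone library in 1 group takes it to vary like the other genotype.

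The number of miRNAs called ranged from 0 to 3 over the libraries left out (2 without WT pool 2, 3 without KO pool 2) and was 10 with the block and the limit of 100 UMIs together. The labels do not say what the pool number marks, so the block is an alternative only. Deviations of same-numbered libraries correlated at 0.527 across miRNAs, and the block alone left 1 residual degree of freedom, 0 calls and a log2 fold change of 0.49 (SE 0.27, edgeR adjusted p 0.898) for miR-29b-3p, 0.06 for miR-29a-3p and -0.15 for miR-29c-3p.

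KO over WT ratios in pools 1 and 2 moved with total UMIs to 1.03 and 1.11 for miR-29a-3p, 1.27 and 1.64 for miR-29b-3p and 0.966 and 0.892 for miR-29c-3p. Scaled on miR-29a-3p, they were 1.23 and 1.47 for miR-29b-3p and 0.935 and 0.802 for miR-29c-3p. Each guide strand had 747 UMIs or more in every library, and each passenger arm 57 or fewer, so relative counting error was wider for the arms. Reads per UMI were lower in pool 2, and the effect of depth on the counts was not tested.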
